A study of Mus musculus with 12 samples.

Results

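The comparison described here asks whether house dust mite (HDM) treatment altered the difference between a lung tumour and the lung around it. It is the interaction of tissue and treatment over all 12 of the 12 RNA-seq libraries of the series, of 20608682 to 32765364 counts each: the tumour minus normal lung difference under HDM, minus the same difference under VEH, an abbreviation that the labels do not spell out. There were 3 libraries in each of 4 groups of mouse tissue. In 2 groups the tissue was macroscopic LLC (Lewis lung carcinoma) tumours, dissected under a binocular microscope from mice labelled VEH or HDM. In the other two it was normal lung next to such tumours, under the same treatment labels. The HDM exposure was described as chronic, and strain, age, sex and dose are not given in the sources used here. A negative value means that a gene's tumour minus lung difference was lower under HDM than under VEH, whether through the tumours, the lung or both. Values are log2 differences with their standard errors (SE, after ±), and levels are CPM, counts scaled to a common library size, with sizes adjusted by the trimmed mean of M-values. Nothing in the labels says which libraries of a group came from separate animals, so p-values measure the spread between these libraries.

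LLC is a transplantable mouse lung carcinoma line of the C57BL strains that forms tumours in syngeneic hosts. House dust mite extract is a common aeroallergen and drives type 2 inflammation of the airway, with IL-4 and IL-13 acting through STAT6, mucus metaplasia of the epithelium and alternative activation of macrophages. Interferon-gamma, made mainly by T and NK cells, acts through JAK kinases on transcription factors that bind GAS elements and induce IRF1 and CIITA. Complexes that hold IRF9, and IRF1 itself, bind ISRE elements. Their targets raise antigen presentation: the immunoproteasome cuts peptides, TAP carries them to MHC class I molecules, and CIITA drives the MHC class II genes. CXCL9 and CXCL10 are interferon-induced ligands that draw T cells carrying CXCR3.

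Some libraries stood apart. Each library name starts with a code shared by 1 normal and 1 tumour library, and for 2 of the 6 codes the labels give the pair different treatments (VEH normal 2 with HDM tumour 2, and HDM normal 3 with VEH tumour 3). The labels as given were used throughout, and which reading is right was not tested. With those 4 libraries left out, 92 of the 93 genes in 7 lists of interferon signalling and its targets were fitted, and 89 had negative values, 43 at an unadjusted p below 0.05, beside 6.43% of all genes tested in that fit. With the treatment labels of the 2 tumour libraries exchanged, 85 of 93 were negative, 0 of them at that p, beside 1.57% of all genes tested in that fit. Their median was -0.54 in place of -1.86, so the interferon values below depend on these labels. HDM tumour 3 had the lowest levels of lung epithelial genes among the tumours and VEH tumour 2 the highest. The alveolar type 2 level (mean log2 CPM of 14 genes) was 8.81, 9.97 and 9.69 in VEH lung, 10.52, 10.48 and 9.49 in HDM lung, 7.30, 8.45 and 7.20 in VEH tumours and 7.21, 7.08 and 1.64 in HDM tumours. The 14 genes include Cd74, also an MHC class II list member. Whether lung in the pieces or the tumour cells gave this signal was not tested. All 22 cell cycle genes passed the test as higher in tumour than in lung under both treatments, beside 18.2% of all genes tested under VEH and 23% under HDM.

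No gene passed the test of the interaction. Of 22190 genes tested, 0 (0%) had an adjusted p below 0.05 with edgeR's quasi-likelihood test and Benjamini-Hochberg adjustment, and the smallest adjusted p was 0.286. Without adjustment, 2084 genes (9.39%) had a p below 0.05. Of these, 740 were positive (3.33% of all genes tested) and 1344 negative (6.06%). The genes closest to the threshold on the negative side were mostly genes of antigen presentation, and all 93 tested members of 7 lists of interferon signalling and its targets had negative values. Of those 93 genes, 64 were negative at an unadjusted p below 0.05, beside 6.06% of all genes tested. Their median interaction was -1.86, beside -0.02 over all genes tested.

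The interaction can be read as the HDM minus VEH difference in tumours less the same difference in normal lung. Among the 1344 negative genes the tumour difference was the larger in absolute size in 1210 (90% of them). Their median interaction of -2.31 was made of a median of -1.97 in tumours and 0.30 in normal lung. Under VEH 462 of them were higher in tumour than in lung, and under HDM 82. Among the 740 positive genes the tumour difference was the larger in 481 (65%). Their median of 1.00 was made of 0.65 in tumours and -0.37 in normal lung. In this set 351 genes were higher in tumour than in lung under VEH and 640 under HDM. Both sets were chosen by the sign and p of the interaction, so these splits partly follow from that choice. The shares over all genes tested are not given here. The median SE of an interaction was 0.549, against 0.389 for the HDM minus VEH difference within either tissue.

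For the 93 interferon genes the tumour difference was the larger in 89, a count whose share over all genes tested is not given here. Their median HDM minus VEH difference was -1.97 in tumours and 0.03 in normal lung, beside -0.035 and -0.014 over all genes tested. In 71 of the 93, all 3 HDM tumours were below all 3 VEH tumours, which held for 10.7% of all genes tested. Between the tumours themselves, 19 genes (0.0856% of those tested) passed edgeR's quasi-likelihood test as lower under HDM, with an adjusted p below 0.05, and 9 of the 19 were interferon list members: H2-Ab1, H2-DMa, Tap2, H2-T22, Psmb8, Psmb9, Psmb10, Psme1 and Psme2. These tumour libraries also enter the interaction, so that difference is one of its parts and not separate evidence. Seen from the tissues, 84 of the 93 were higher in tumour than in lung under VEH and 29 under HDM. Over all genes tested the median tumour minus lung difference was -0.11 under VEH and -0.08 under HDM. Under VEH 42 of the 93 passed the test as higher in tumour, beside 18.2% of all genes tested. Under HDM 6 did (23% of all genes tested), and 30 passed as lower in tumour (28.9% of all genes tested).

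**Figure D1:**
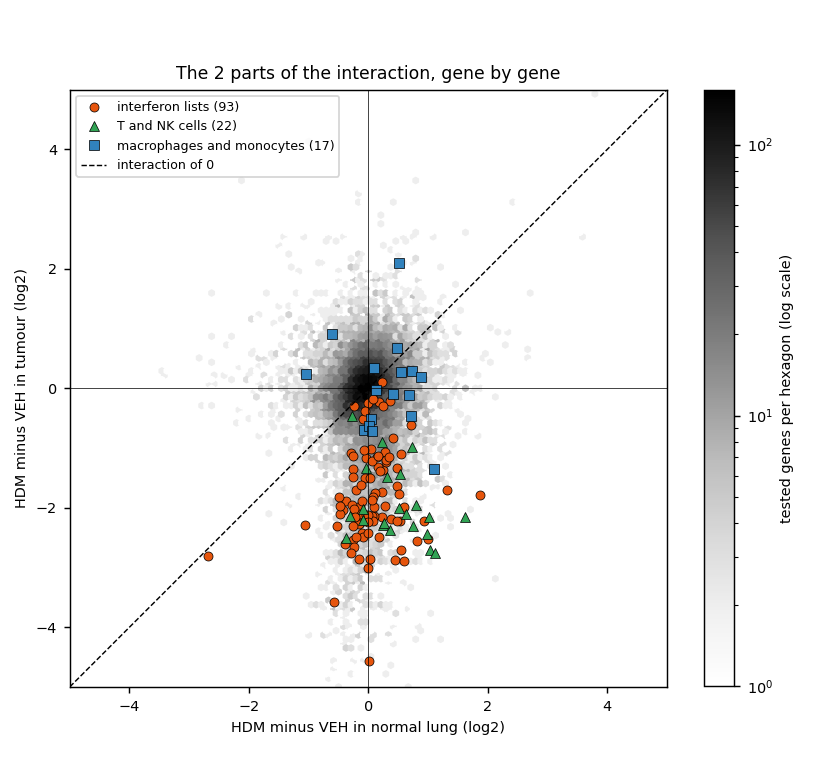
Each tested gene by its HDM minus VEH log2 difference in normal lung (horizontal) and in tumours (vertical); the dashed line marks an interaction of 0 and grey shading counts genes. The 93 interferon genes (circles) and 22 T and NK cell genes (triangles) lie below the line and mostly near 0 on the horizontal axis, while the 17 macrophage and monocyte genes (squares) lie on both sides; 241 genes beyond 5 on either axis are not drawn.

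The interferon-response elements that the background names can be looked for in these genes' promoters. RefSeq promoter windows (GRCm38.p6 table) were found for 68 of the 93 genes, and the 250 bases before the start were searched on both strands. The letters searched were GAAANNGAAA for an ISRE-like match and TTCNNNGAA for a GAS-like match. The first was in 24 of 68 genes (35.3%) and in 3.46% of all 27025 genes with a window. The second was in 14 of 68 (20.6%) and in 8.13% of all genes. The interferon GTPases held the first in 9 of 10 genes and the antiviral genes in 8 of 15, against 0 of 5 immunoproteasome genes and 1 of 8 MHC class II genes. The second was in 6 of 10 GTPase genes, 3 of 11 signalling genes, 3 of 15 antiviral genes, 1 of 8 MHC class II genes, 1 of 5 immunoproteasome genes and 0 of 13 class I genes. These are matches of letters, not sites of binding. A pair of windows is given whole as examples of clustered matches, since neither overlaps an annotated exon: Tgtp2, an interferon-inducible GTPase, from chr11:48955040-48955289, and Bst2, the antiviral membrane protein tetherin, from chr8:71990117-71990366, both read on the minus strand. Coordinates are on GRCm39, where each window matched exactly once, and capitals mark every match to either motif, which overlap in Bst2.
Tgtp2: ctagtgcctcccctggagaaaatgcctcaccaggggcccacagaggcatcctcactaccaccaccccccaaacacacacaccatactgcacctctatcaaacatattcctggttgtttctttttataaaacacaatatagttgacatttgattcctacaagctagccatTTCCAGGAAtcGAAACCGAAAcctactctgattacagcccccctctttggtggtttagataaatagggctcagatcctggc
Bst2: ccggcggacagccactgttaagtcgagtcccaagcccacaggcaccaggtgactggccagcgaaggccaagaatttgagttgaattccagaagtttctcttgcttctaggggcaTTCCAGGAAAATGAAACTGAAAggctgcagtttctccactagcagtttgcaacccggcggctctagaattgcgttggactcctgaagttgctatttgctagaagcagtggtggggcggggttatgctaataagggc

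For the members that carry the results below, 30 bases around a match are shown as single examples, chosen by hand. All 5 windows overlap annotated exons, and the matches of Psmb8, B2m and Irgm1 lie within the annotated span of the gene, although before the RefSeq start used. Irf1, the interferon-induced transcription factor (chr11:53660741-53660770, plus strand), and Psmb8, a catalytic subunit of the immunoproteasome (chr17:34417062-34417091, plus strand), hold a GAS-like match. B2m, the light chain of MHC class I (chr2:121978019-121978048, plus strand), Irgm1, a GTPase of cell-autonomous defence (chr11:48762258-48762287, minus strand), and Isg15, a ubiquitin-like modifier (chr4:156285328-156285357, minus strand), hold ISRE-like matches, which overlap each other in Irgm1 and in Isg15.
Irf1: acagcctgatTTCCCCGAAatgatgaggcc
Psmb8: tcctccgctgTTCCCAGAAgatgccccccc
B2m: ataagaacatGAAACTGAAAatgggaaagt
Irgm1: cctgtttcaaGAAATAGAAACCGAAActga
Isg15: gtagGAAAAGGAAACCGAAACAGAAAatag

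The pathway is described from its ligand to its targets. Ifng, which encodes interferon-gamma itself, was near the limit of detection, at 0.552, 0.0744 and 1.2 CPM in tumours under VEH, 0, 0.546 and 0 under HDM and at most 0.0819 in the normal libraries. No fold is given for it. The receptor gene Ifngr1 had an interaction of -0.58 ± 0.30 and the kinase gene Jak1 of -0.13 ± 0.24, both nearer 0 than the median of the list. The transcription factors had larger values. Irf9, a DNA-binding subunit of the complex at ISRE elements, measured 37.8, 33.1 and 38.4 CPM in normal lung under VEH, 39.4, 50.5 and 39.6 in normal lung under HDM, 67, 45.2 and 63.2 in tumours under VEH and 29.8, 21.9 and 16.6 in tumours under HDM. The HDM tumours were below every other library, and the VEH tumours overlapped HDM lung. Its interaction was -1.61 ± 0.32 (adjusted p = 0.29, edgeR quasi-likelihood).

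Ciita, the master activator of MHC class II genes, measured 10.8, 9.69 and 18.6 CPM in normal lung under VEH, 25.6, 26.8 and 22.2 in normal lung under HDM, 35.6, 29 and 34 in tumours under VEH and 12.1, 6.28 and 2.88 in tumours under HDM. The HDM tumours lay below all VEH tumours, whereas in normal lung the HDM libraries lay above all VEH libraries. Tumour minus lung was 1.33 under VEH and -1.81 under HDM, and the interaction was -3.15 ± 0.61 (adjusted p = 0.286, edgeR quasi-likelihood). Irf7, an amplifier of the type I response, had an interaction of -2.57 ± 0.72. Irf1 measured 135, 155 and 153 CPM in tumours under VEH and 67.5, 54.3 and 34.5 under HDM, with no overlap, and its interaction was -1.45 ± 0.44. Of the 15 signalling genes, all had negative values and 9 were negative at an unadjusted p below 0.05. The list's median interaction was -1.52, and -1.49 without Ifng.

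MHC class II genes, which present peptides to CD4 T cells, had the most negative median of the interferon lists. It was -2.73 over 10 genes, of which 9 were negative at an unadjusted p below 0.05. H2-Ab1, a beta chain of the class II molecule at chr17:34476663-34488393 (GRCm39), measured 495.5, 296 and 405 CPM in normal lung under VEH, 553, 559 and 514 in normal lung under HDM, 922, 913 and 701 in tumours under VEH and 177, 128 and 41.9 in tumours under HDM. The HDM tumours were the lowest of the 4 groups with no overlap, and the VEH tumours the highest. Tumour minus lung was 1.08 under VEH and -2.23 under HDM, which gave an interaction of -3.31 ± 0.58 (adjusted p = 0.286, edgeR quasi-likelihood). The difference between tumours was -2.87 (adjusted p = 0.0446, same fit) and that between normal lungs 0.44.

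Cd74, the invariant chain, which guards the class II groove, measured 740.3, 725 and 702 CPM in normal lung under VEH, 1418, 1446 and 955 in normal lung under HDM, 1503, 1771 and 1233 in tumours under VEH and 412.5, 280.3 and 71.5 in tumours under HDM. The HDM tumours were below every other library, the VEH tumours overlapped HDM lung, and the interaction was -3.38 ± 0.67. H2-Eb1 and H2-Aa, the other classical chains, had interactions of -3.49 and -3.25. H2-DMa, which exchanges peptides on class II and had the smallest p of all named genes, measured 67.7, 48.5 and 50.8 CPM in normal lung under VEH, 73.7, 66.7 and 54.3 in normal lung under HDM, 74.8, 85.1 and 64.7 in tumours under VEH and 26, 25 and 16 in tumours under HDM. Its HDM tumours were below all other libraries, and the interaction was -1.97 ± 0.30 (adjusted p = 0.286, edgeR quasi-likelihood). Ctss, the protease that trims the invariant chain, was the exception of the list, with overlapping tumours and -1.33 ± 1.30. Some of these genes overlap a gene on the other strand (H2-Eb1 and H2-Aa overlap each other, H2-DMa overlaps Brd2). So do other genes named in this report, among them Irf7 (Phrf1), Tap2 (Gm20496 and Gm15821) and Psmb8 (Gm20496). The kit marked strand, but the strand setting of the counting is not given in the sources used here, so their reads may not be separate.

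The MHC class I list holds the heavy and light chains and the machinery that loads them. All 15 genes had negative values, 11 at an unadjusted p below 0.05, with a median of -1.51. Tap2, a subunit of the peptide transporter, measured 111.5, 99.1 and 93.8 CPM in normal lung under VEH, 116, 106 and 115 in normal lung under HDM, 146, 128 and 136 in tumours under VEH and 65.5, 70.3 and 48.9 in tumours under HDM. The VEH tumours were above and the HDM tumours below every normal library. Its interaction was -1.30 ± 0.21 (adjusted p = 0.286, edgeR quasi-likelihood), and the difference between tumours was -1.15 (adjusted p = 0.0274, same fit). Tap1, its partner, had -2.25 ± 0.43.

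Among the chains, H2-K1 had an interaction of -2.18 ± 0.57, H2-D1 of -1.47 ± 0.51 and B2m of -1.86 ± 0.52. B2m measured 1953, 1640 and 1770 CPM in tumours under VEH and 688, 619 and 284 under HDM, with no overlap, while its normal lung libraries ran from 554 to 1286 CPM. The class I genes of the H2-Q and H2-T groups are near-identical copies, so the split of reads between them is uncertain.

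The 5 immunoproteasome genes were all negative at an unadjusted p below 0.05, with a median of -1.48. Psmb8 measured 75.2, 75.8 and 82.3 CPM in normal lung under VEH, 93, 87.7 and 67.3 in normal lung under HDM, 100.2, 111 and 90.3 in tumours under VEH and 27.5, 29.3 and 12 in tumours under HDM. Its HDM tumours were below every other library, and the interaction was -2.22 ± 0.39 (adjusted p = 0.286, edgeR quasi-likelihood). Psmb10, another catalytic subunit, measured 141, 127 and 128 CPM in tumours under VEH and 42.4, 48.3 and 31.7 under HDM, again with no overlap, and its interaction was -1.48 ± 0.27. Psmb9 had -1.96 ± 0.44. The activator subunits had smaller values, -0.80 ± 0.19 for Psme1 and -0.88 ± 0.19 for Psme2. All 5 also passed the test between tumours, with adjusted p from 0.0274 to 0.0446 (edgeR, quasi-likelihood). Psmb8, Tap2, H2-DMa, H2-Ab1 and H2-Eb1, which are 5 of the 10 named genes on the negative side, lie in the MHC region of chromosome 17 between 34338515 and 34535648 (GRCm39), and Psmb10 lies on chromosome 8.

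**Figure D2:**
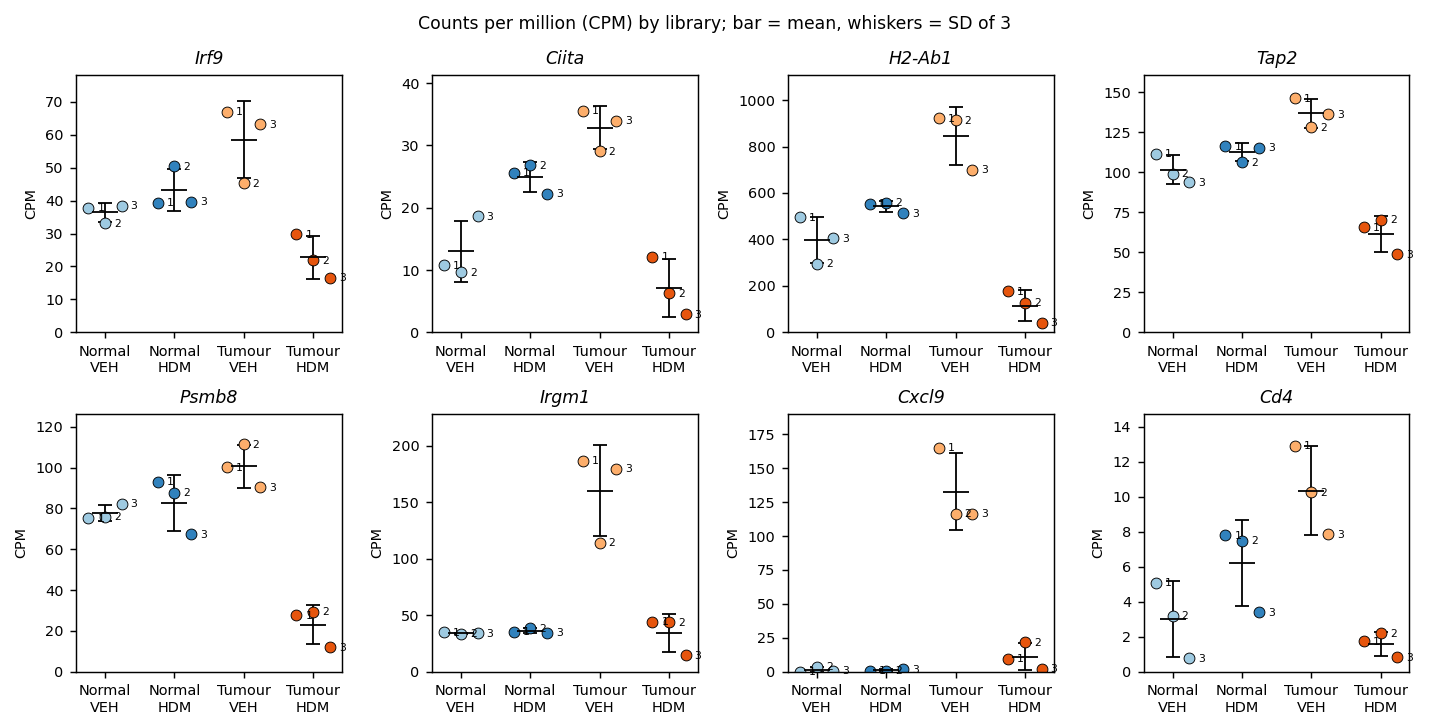
CPM of 8 genes in the 12 libraries, with replicate numbers, group means and SD. For all 8 genes the VEH tumours lie above all HDM tumours, and in normal lung the same separation is absent or, for Irf9, Ciita and H2-Ab1, reversed.

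The interferon-inducible GTPases, which act against pathogens inside the cell, had a median of -2.25 over 16 genes, 12 of them negative at an unadjusted p below 0.05. In all 16 the HDM tumours lay below the VEH tumours. Irgm1 measured 34.7, 33.7 and 34 CPM in normal lung under VEH, 35.4, 38.6 and 34.5 in normal lung under HDM, 187, 114 and 179.8 in tumours under VEH and 44.2, 44.1 and 14.8 in tumours under HDM. Normal lung stayed within a narrow range, the VEH tumours were above all other libraries, HDM tumour replicates 1 and 2 lay just above lung and replicate 3 below it. Tumour minus lung was 2.23 under VEH and -0.08 under HDM, and the interaction was -2.31 ± 0.49 (adjusted p = 0.376, edgeR quasi-likelihood). Igtp had -2.42 ± 0.64, Iigp1 -2.23 ± 0.82 and Gbp2 -1.60 ± 0.85.

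Genes of the antiviral (type I) response had a median of -1.86 over 22 genes, 13 of them negative at an unadjusted p below 0.05. Bst2 measured 131, 63.4 and 134.5 CPM in normal lung under VEH, 68.1, 73.7 and 95.1 in normal lung under HDM, 401, 196 and 281 in tumours under VEH and 108, 67 and 49.3 in tumours under HDM. The VEH tumours were above every other library, and the HDM tumours overlapped normal lung. Its interaction was -1.50 ± 0.52. Isg15 had -2.28 ± 0.80, Zbp1, a sensor of Z-form nucleic acids, -3.00 ± 1.00, Ifit3 -2.11 ± 0.84 and Oasl2 -2.11 ± 0.75. In this list the tumours overlapped in 11 of 22 genes. Ifit, Oas, Gbp, Tgtp and Irgm genes are families of close copies, so reads may be shared between members.

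The list of CXCR3 ligands, receptors and checkpoint genes had a median of -2.17 over 10 genes, and -2.23 without Cxcl11, which was at most 3 counts in each library of a group. Cxcl9 measured 0.0821, 3.71 and 0.674 CPM in normal lung under VEH, 0.778, 0.604 and 1.69 in normal lung under HDM, 165, 116 and 116 in tumours under VEH and 9.61, 21.6 and 2.15 in tumours under HDM. The VEH tumours were above all other libraries, and all HDM tumours except replicate 3 were above all normal libraries. Tumour minus lung was 6.43 under VEH and 3.43 under HDM, for an interaction of -3.01 ± 1.40 (adjusted p = 0.538, edgeR quasi-likelihood). Cxcl10 had -1.22 ± 1.12, and Ccl5, another T cell chemoattractant, -2.23 ± 0.55. Cd274, which encodes PD-L1, had -1.25 ± 1.01, with overlapping tumours at 35.7, 13.7 and 30.1 CPM under VEH and 18.9, 21.1 and 4.58 under HDM.

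T and NK cell genes had values of the same sign as these lists. All 22 had negative values, 16 at an unadjusted p below 0.05, and the median was -2.51. Cd4 measured 5.09, 3.21 and 0.758 CPM in normal lung under VEH, 7.78, 7.47 and 3.39 in normal lung under HDM, 12.9, 10.3 and 7.84 in tumours under VEH and 1.73, 2.19 and 0.819 in tumours under HDM. The HDM tumours were below the VEH tumours without overlap. Its interaction was -3.75 ± 0.88, with -3.06 ± 0.87 for Cd3g, -3.87 ± 1.23 for Trac, -1.93 ± 0.56 for Gzma and -2.76 ± 0.80 for Il2rb. Foxp3, of regulatory T cells, had -0.18 ± 0.40 and Zap70 -2.12 ± 0.77. In bulk tissue, fewer T cells and less of these RNAs per cell cannot be told apart, and the same holds for every gene here. The summed T and NK level (mean log2 CPM of the list) was 2.69, 2.11 and 2.59 in VEH tumours and 0.98, 0.96 and -1.28 in HDM tumours. Its part in the interferon values was not tested.

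Dendritic cell genes had a median of -1.50 over 13 genes, 5 of them negative at an unadjusted p below 0.05. Ccr7, a homing receptor of mature dendritic cells and of lymphocytes, measured 14, 8.03 and 10.2 CPM in tumours under VEH and 3.41, 2.97 and 1.46 under HDM, and its interaction was -2.47 ± 0.54. Cd24a, which epithelium also expresses, had -2.38 ± 1.47 and Fscn1 0.50 ± 0.65. Of the macrophage and monocyte genes 12 of 17 were negative and 0 at an unadjusted p below 0.05, with a median of -0.51. Their level was 6.98, 6.44 and 6.55 in VEH tumours and 6.57, 6.83 and 6.54 in HDM tumours, which overlapped. Without VEH normal lung replicate 2, 15 of the 17 were negative and the median was -0.98. Of these, 6 were at an unadjusted p below 0.05, beside 6.39% of all genes tested in that fit. Other settings also gave lower values. With the name code as a block the median was -1.32, with 13 of 17 negative at that p (6.79% of all genes tested). It was -1.31 with 9 (6.43% of all genes) without the 4 libraries of conflicting codes and -1.06 with 6 (6.48%) by voom. With 2 normal labels exchanged it was -1.31 with 11 (10.1% of all genes). Of those 11, 3 passed the test (edgeR), beside 0.838% of all genes tested. B and plasma cell genes had 11 of 14 negative values and 2 at an unadjusted p below 0.05.

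Cytokines, receptors and regulators of the type 2 response were split in sign, and lists of its targets were mostly negative. Of 16 type 2 cytokines, receptors and regulators 12 were tested, with 6 positive and 6 negative values and a median of 0.07, or -0.06 without Il17rb. The split rested on VEH normal lung replicate 2, without which 10 of 12 were negative (median -0.43). It was also 9 of 12 with 2 normal labels exchanged (-0.67) or with 2 tumour labels exchanged (-0.37), and 8 of 12 with the name code as a block (-0.63) or without the 4 conflicting libraries (-0.53). Il5, Il9, Il13 and Il25 were too low to be tested. Gata3, the type 2 regulator in T cells and innate lymphoid cells, measured 12, 3.46 and 13.3 CPM in normal lung under VEH, 5.82, 8.15 and 14.9 in normal lung under HDM, 1.78, 2.64 and 0.923 in tumours under VEH and 0.411, 0.137 and 0.121 in tumours under HDM, and its interaction was -3.02 ± 0.92. Il13ra1, the IL-13 receptor, had -1.07 ± 0.43. Both genes are on the negative side of the list, whose 12 values ran from -3.02 to 2.15. Alternatively activated macrophage genes had 11 of 15 negative values, with a median of -1.60. It was -0.999 without Chil4, which was at most 3 counts in each library of a group, and -0.424 over the 8 genes with at least 10 counts in every library. The median of all 15 was -0.57 without VEH tumour replicate 2 and -0.585 (9 negative) without that library and HDM tumour replicate 3. It was -0.36 with 2 tumour labels exchanged and -2.93 with 2 normal labels exchanged. In the main fit 4 of the 15 were negative at an unadjusted p below 0.05. These 4 included Mgl2, a C-type lectin of macrophages and dendritic cells, at 20.7, 5.47 and 7.87 CPM in normal lung under VEH, 16.5, 16.8 and 24.3 in normal lung under HDM, 30.9, 23.7 and 18.2 in tumours under VEH and 3.61, 2.66 and 3.46 in tumours under HDM. The HDM tumours were below all other libraries, and the interaction was -3.66 ± 0.63 (adjusted p = 0.286, edgeR quasi-likelihood). Ccl17 and Ccl22, ligands of CCR4, had -3.46 and -2.41. Eosinophil, mast cell and basophil genes had 4 positive and 4 negative values among 8 tested.

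Airway lists had the most negative medians of all. The median was -4.69 over 13 goblet cell genes, -3.08 over 23 club cell and xenobiotic genes and -2.98 over 20 ciliated genes. All of these genes had negative values, and 4, 4 and 6 were negative at an unadjusted p below 0.05, beside 6.06% of all genes tested. By voom these counts were 0, 0 and 0, and without VEH tumour replicate 2 they were 0, 1 and 0. Without VEH tumour replicate 1 they were 8, 16 and 17. Over all genes tested in these fits, in the same order, 6.48%, 4.32% and 7.98% were negative at that p. Libraries were uneven in these lists. Scgb1a1, the club cell secretoglobin, measured 97559, 23837 and 78318 CPM in normal lung under VEH, 21507, 50964 and 53358 in normal lung under HDM, 385, 16272 and 5354 in tumours under VEH and 597, 1043 and 2.27 in tumours under HDM. VEH tumour replicate 2 was the highest tumour and HDM tumour replicate 3 the lowest, the other 4 tumours lay between, and the interaction was -3.08 ± 2.10 (adjusted p = 0.623, edgeR quasi-likelihood).

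Other airway genes showed the same uneven libraries. Cyp2f2 had an interaction of -4.46 ± 1.92, Hp of -2.07 ± 1.28 and Aldh3a1 of -6.46 ± 1.59. Muc5b, a gel-forming mucin, measured 33.6, 32.6 and 46.1 CPM in normal lung under VEH, 44.4, 564 and 24.9 in normal lung under HDM, 7.82, 369.8 and 117 in tumours under VEH and 52.1, 15.4 and 0 in tumours under HDM, with HDM normal lung replicate 2 and VEH tumour replicate 2 above the rest, and its interaction was -5.37 ± 2.47. Pigr had -4.22 ± 2.02 and Creb3l1 -0.83 ± 0.67. Among ciliated genes Foxj1, the ciliogenesis factor, had -3.43 ± 1.75, Tppp3 -2.17 ± 0.89 and Tubb4b, a tubulin that other cells also use, -0.31 ± 0.54. With VEH tumour replicate 2 and HDM tumour replicate 3 both left out, a setting chosen after seeing the data, the medians were -2.69 for goblet, -1.14 for club and -1.32 for ciliated genes.

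The level of lung epithelial genes in the tumour pieces differed between these libraries, and it is given beside the interferon values. In the alveolar type 2 level VEH tumours 1 and 3 and HDM tumours 1 and 2 lay between 7.08 and 7.30. They were less alike in airway levels: the club level was 3.27 and 5.85 under VEH against 3.76 and 3.83 under HDM, and the ciliated level 1.04 and 3.70 against 1.67 and 1.47. The T and NK level was 2.69 and 2.59 against 0.98 and 0.96. In the same 4 tumours the MHC class II level was 6.92 and 6.61 under VEH against 5.17 and 4.98 under HDM. These 4 were picked after seeing the data, and VEH tumour 3 and HDM tumour 2 among them carry the conflicting name codes. The part of lung content in the interferon values was not tested. With the pair of extreme tumours left out, 92 of the 93 interferon genes were negative, 66 at an unadjusted p below 0.05 (3.5% of all genes tested in that fit), and the median was -1.66. In that fit 1 gene passed, Irgm1 at -2.12 (adjusted p = 0.00934, edgeR quasi-likelihood).

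**Figure D3:**
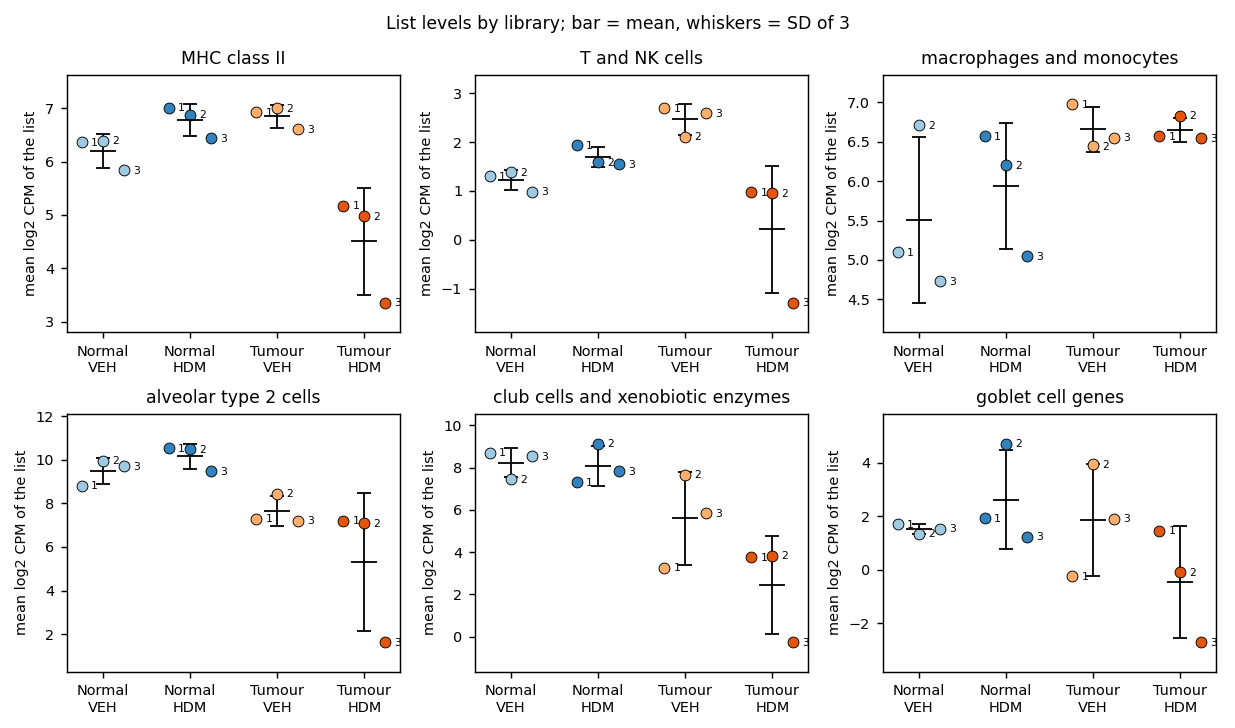
Mean log2 CPM of 6 lists in the 12 libraries, with replicate numbers, group means and SD. HDM tumour replicate 3 is the lowest tumour for 5 of the 6 lists, and HDM tumours 1 and 2 lie below all VEH tumours for MHC class II and T and NK cells but not for the other 4 lists.

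**Figure D4:**
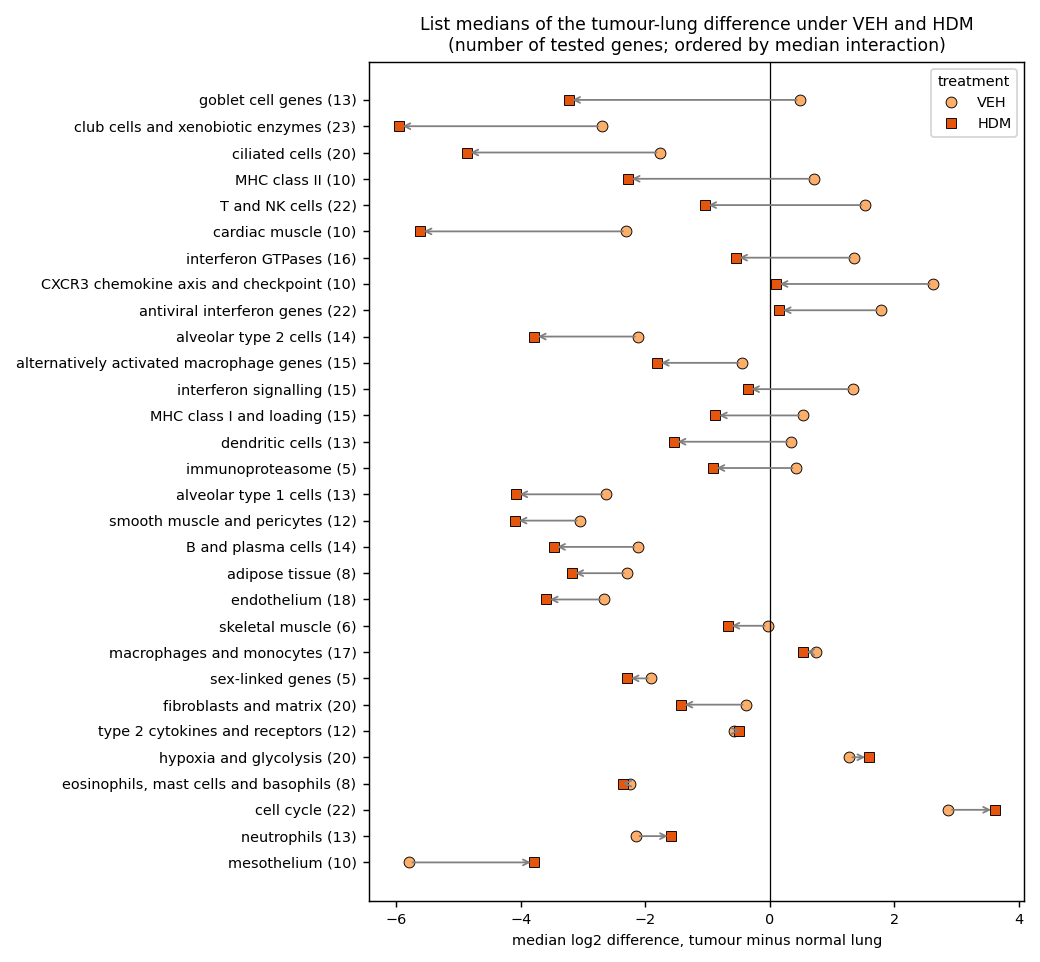
Median tumour minus lung log2 difference of each list under VEH (circles) and HDM (squares), with the number of tested genes. The arrows point to lower values under HDM for the interferon, T cell and airway lists, the MHC class II median going from 0.70 to -2.28, and are short for macrophages.

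On the positive side the genes closest to the threshold did not belong to one list. All 10 named genes had an adjusted p of 0.41 (edgeR, quasi-likelihood). Xist, the RNA that coats the inactive X chromosome, had the largest value of the 10. It measured 1.44, 3.68 and 1.52 CPM in normal lung under VEH, 1.31, 0.566 and 1.03 in normal lung under HDM, 33.9, 19.8 and 27.6 in tumours under VEH and 143, 59.8 and 389.6 in tumours under HDM. The normal libraries were near 0, both tumour groups were above them and the HDM tumours were above all VEH tumours. Its interaction was 4.07 ± 0.92. Xist overlaps Tsix on the other strand. The Y-linked Ddx3y was at 12.9, 14.1 and 14.7 CPM in VEH tumours, 11.1, 12.5 and 9.07 in HDM tumours and 50.5 to 70.6 in normal lung. The part of the sex of hosts or tumour cells in these values was not tested.

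The other 9 had values between 0.82 and 1.17. Msi2, an RNA-binding protein of stem cells, measured 106, 94.3 and 129 CPM in normal lung under VEH, 80.5, 113.5 and 94.8 in normal lung under HDM, 74.1, 63.3 and 68.4 in tumours under VEH and 106, 148 and 130.2 in tumours under HDM, and its interaction was 1.09 ± 0.25. The HDM tumours were above all VEH tumours and the normal groups overlapped. Abca1, the cholesterol exporter, measured 34.1, 26.6 and 32.8 CPM in tumours under VEH and 68.6, 73.6 and 64 under HDM, with an interaction of 0.82 ± 0.19. Setd7, a lysine methyltransferase, had 0.92 ± 0.21 and Tfdp1, the dimer partner of E2F factors, 1.04 ± 0.24. For Tfdp1 the tumour difference was 0.35 and the normal lung difference -0.69, so the lung gave the larger share. The rest were Zdhhc20 (0.82), Nbeal1 (1.00), Evi5 (0.94), Arl14ep (1.17) and Csgalnact2 (1.01). In all 10 the HDM tumours lay above the VEH tumours, an order that the choice by smallest interaction p favours. The share of all genes tested with that order is not given here.

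Of the 10 named negative genes, 3 were outside the interferon and macrophage lists. Ly6a, the surface antigen Sca-1, measured 399.7, 322 and 440 CPM in normal lung under VEH, 504, 445 and 338.5 in normal lung under HDM, 264, 331 and 294 in tumours under VEH and 61.7, 84.5 and 31.6 in tumours under HDM, with HDM tumours below all other libraries and an interaction of -2.47 ± 0.43. Ppfia4, a liprin, had -2.87 ± 0.51 and Sp110, a nuclear body protein, -1.71 ± 0.31. All 10 had an adjusted p of 0.286 (edgeR, quasi-likelihood).

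A different test and other readings of the labels changed the count of calls. DESeq2's Wald test on the same counts called 222 genes (1% of 22190) at an adjusted p below 0.05, 37 of them positive. They included 28 of the 93 interferon genes, all negative: 8 of 10 MHC class II genes, 5 of 5 immunoproteasome genes, 5 of 15 class I genes and 5 of 15 signalling genes among them. With the treatment labels of the 2 normal libraries of conflicting name codes exchanged, edgeR called 186 genes (0.838%), 31 of them positive, and 12 were interferon genes. With the labels of the 2 tumour libraries exchanged instead it called 0, and the interferon median was -0.54 with 85 of 93 negative. In that fit 0 of the 93 were negative at an unadjusted p below 0.05, beside 1.57% of all genes tested. Without HDM tumour replicate 3, edgeR called 6 genes, Psmb8, H2-Ab1, H2-Aa, H2-Eb1, Cd74 and Gm20513, each at an adjusted p of 0.037 and each negative. Without VEH normal replicate 1 it called 1, Mgl2, at -4.43 (adjusted p = 0.0366).

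**Figure D5:**
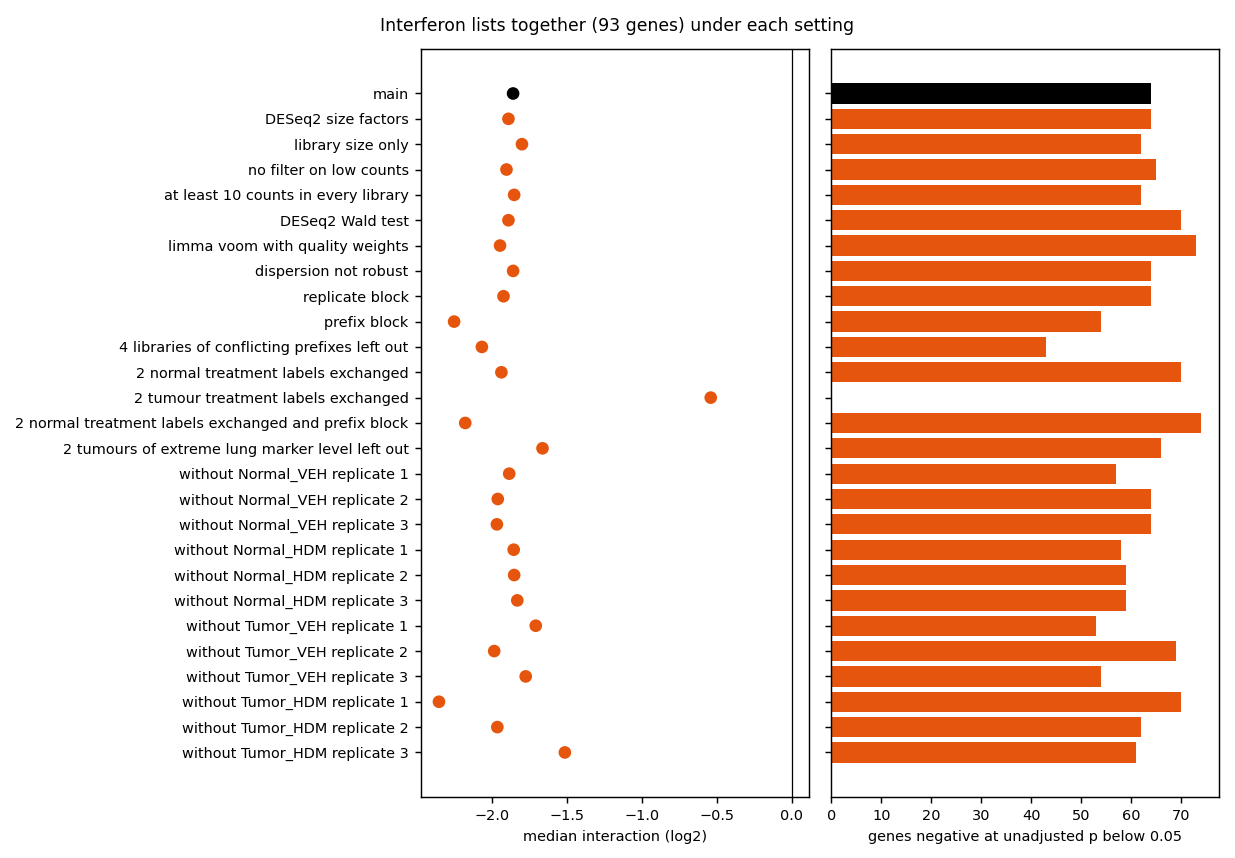
Median interaction of the 93 interferon genes (left) and how many of them were negative at an unadjusted p below 0.05 (right) under each setting, the black mark being the analysis as reported. The median stays between -2.35 and -1.51 except at -0.54 where 2 tumour treatment labels are exchanged.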

How the data were processed

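RNA from dissected mouse tissue was sequenced as paired reads from stranded libraries; whether poly(A) selection or rRNA depletion was used is not settled by the labels. The authors deposited raw gene counts, made with Trim Galore, STAR and featureCounts on mm39 per the submitters' processing notes. Tool versions and the strand setting are not given in the sources used here. Library totals were 20608682 to 32765364 counts. Gene identifiers were named with GENCODE M39 (78168 of 78298 matched). Genes passing edgeR's filterByExpr at a minimum count of 10 (22190) were fitted in edgeR 4.0.16 (R 4.3.3) with a coefficient per group, TMM scaling and the robust quasi-likelihood test (8 residual degrees of freedom). P-values were adjusted over all tested genes by Benjamini-Hochberg. The fitting step was tested on simulated data. Libraries of a group differed beyond counting noise (chi-square per gene of 30.9 to 284), so none was counted as a duplicate. List levels are means of log2 CPM with a prior count of 2, and list medians have no test. The question, its members and the lists were chosen with earlier results of these data known. Named genes are the 10 with the smallest p in each direction (average log2 CPM of at least 3, with an established symbol, no immunoglobulin or T-cell receptor segment), the 3 list members with the highest counts, and other list members; that second part of the rule is printed for 12 of the 30 lists, and the others are given as lists. Some genes that the rule or the lists hold are not reported here by name. Alternatives used DESeq2 1.42.0 and limma 3.58.1, other scalings and filters, a replicate or name-code block, exchanged labels and libraries left out.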

Additional observations from a re-analysis of the deposited data

How the results depend on the processing

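Leaving out each library in turn gave 0 to 6 genes past the threshold and 1414 (without HDM normal replicate 2) to 2549 (without VEH tumour replicate 1) at an unadjusted p below 0.05. The list medians then ran from -1.77 to -1.22 for interferon signalling, -3.07 to -2.21 for MHC class II, -1.72 to -1.16 for class I, -1.66 to -1.29 for the immunoproteasome, -2.53 to -1.80 for GTPases, -2.64 to -1.41 for antiviral genes, -2.73 to -1.89 for the CXCR3 list, -2.86 to -1.96 for T and NK cells, -2.05 to -1.23 for dendritic cells, -6.83 to -2.72 for goblet, -3.83 to -1.73 for club and -3.51 to -1.84 for ciliated genes. Other counts were 222 called with DESeq2 and 186 with 2 normal labels exchanged, which gave 3594 at an unadjusted p below 0.05. There were 698 with 2 tumour labels exchanged, and, with the pair of extreme tumours left out (chosen after seeing the data), 1 called and 1352. With 2 tumour labels exchanged the medians were -0.46 for signalling, -1.50 for MHC class II, -0.61 for class I, -0.43 for the immunoproteasome, -0.57 for GTPases, -0.27 for antiviral genes, -0.73 for the CXCR3 list, -1.06 for T and NK cells, -0.94 for dendritic cells and -1.22 for ciliated genes. With 2 normal labels exchanged they were -1.20 for signalling, -3.01 for CXCR3 and -1.17 for dendritic cells, and with the name-code block added -1.17 and -3.10 for the first 2. The name-code block alone gave -3.86 for MHC class II, -2.05 for class I, -2.94 for CXCR3 and -1.89 for dendritic cells, and leaving out the 4 libraries with conflicting codes -3.39 for MHC class II. A minimum of 10 counts in every library gave -1.30 for CXCR3 and -0.64 for goblet genes (fewer genes tested), voom -2.69 for goblet genes, and leaving out the extreme tumours -2.69 for goblet, -1.14 for club and -1.32 for ciliated genes. Apart from the genes tested and libraries left out, the cause was not tested.

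Single genes changed sign as follows. With tumour labels exchanged Abca1 was -0.017, Cxcl10 0.57, Tubb4b 0.085 and Upk3b, a mesothelial gene, -0.80. With normal labels exchanged Cdk1, a cell cycle kinase, was -1.11, Fscn1 -0.85 and Tubb4b 0.13, and with the code block added -0.57, -0.58 and 0.22. The code block gave -0.13 for Fscn1 and 0.22 for Tubb4b, and leaving out the 4 libraries -0.24 and 0.11. Voom gave -0.10 for Fscn1 and 0.068 for Foxp3, and leaving out the extreme tumours 0.089 for Foxp3 and 0.087 for Creb3l1. With single libraries left out Foxp3 ran from -0.37 to 0.059, Fscn1 from -0.40 to 0.83 and Tubb4b from -0.66 to 0.018. With the replicate block 0 genes were called and 1786 were at an unadjusted p below 0.05. Correlations of deviations from group means were -0.355 to 0.303 for same-numbered libraries and -0.219 to 0.179 for libraries that share a name code. Some pairs share both, so these values cannot tell whether numbers or codes pair the libraries. Libraries held 20608682 counts or more, and the median SE of an interaction was 0.549.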

Other observations

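Structural lung cells had mostly negative values. Alveolar type 2 genes were negative in 14 of 14 (median -1.75, 2 at an unadjusted p below 0.05), alveolar type 1 genes in 11 of 13 (-1.15, 0) and endothelial genes in 16 of 18 (-0.99, 5). Of all genes tested, 6.06% were negative at that p. With VEH tumour replicate 2 and HDM tumour replicate 3 left out the type 2 and type 1 medians were -0.57 and 0.03. With the name-code block they were -4.30 and -1.96. In that fit 6 of 14 type 2 genes were negative at an unadjusted p below 0.05, beside 6.79% of all genes tested. For endothelial genes 0 were negative at that p without these 2 tumours (median -0.55) and 0 without the 4 libraries of conflicting codes (-0.66). The endothelial count was 1 with the name-code block (-0.98) and 1 with 2 normal labels exchanged (-0.39). Fibroblast and matrix genes had a median of -0.07, with 8 positive and 12 negative values.

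Cell cycle genes were positive in 21 of 22 (median 0.68), 1 at an unadjusted p below 0.05. Their HDM minus VEH median was -0.06 in tumours and -0.68 in normal lung, the lung part being the larger, and without VEH normal replicate 2 the median was -0.11. With 2 normal labels exchanged 19 of 22 were negative (median -0.80, or -0.55 with the name-code block), and voom gave 0.07. Mesothelial genes were positive in 9 of 10 (median 2.22, or 1.64 without Lrrn4 and Wt1, which were at 3 counts or fewer throughout a group). The median was -0.79 with 2 tumour labels exchanged and 0.20 with 2 normal labels exchanged (6 of 10 positive). It was 0.19 with the name-code block and 0.10 without the 4 conflicting libraries (5 of 10 positive in each). Over the 3 genes with at least 10 counts in every library it was 0.20. Neutrophil genes had a median of 1.21, or 0.775 without Ngp and Camp, which were at 3 counts or fewer throughout a group. The median of the whole list ran from -1.96 without VEH normal replicate 2 to 3.32 without HDM normal replicate 1. It was -2.78 with the name-code block (11 of 13 negative), -3.10 without the 4 conflicting libraries (11 of 12), -0.30 with 2 tumour labels exchanged and -1.05 by voom. With 2 normal labels exchanged it was -2.73 (12 of 13 negative). Of these, 9 were at an unadjusted p below 0.05, beside 10.1% of all genes tested in that fit. Cardiac muscle genes were negative in 10 of 10 tested of 14 listed, with a median of -2.48. It was -2.87 without Mybpc3 and Ttn, which were at 3 counts or fewer throughout a group. The list's median HDM minus VEH difference was 2.94 in normal lung and -0.19 in tumours. With 2 normal labels exchanged 6 of 10 were negative (median -0.82), and without HDM tumour replicate 1 the median was -5.88.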
